A study of Mus musculus with 6 samples.

Results

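The 32 genes described here carry B lymphocytes through their development in bone marrow, and they were measured in bulk RNA of the mouse inner ear. They are a list given by name, chosen as B cell development genes of the marrow of the temporal bone (the skull bone that houses the ear), and not by a measured value. All 32 were found among the 55401 genes of the count table. They comprise 6 lineage transcription factors and co-activators, 3 genes of V(D)J recombination, 4 of the surrogate light chain and its relatives, 3 immunoglobulin constant genes, 6 receptor chains, kinases and adaptors, 8 surface receptors and 2 intracellular B cell proteins.

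B cells form in bone marrow from progenitors in which the transcription factors EBF1 and PAX5 switch on the B lineage programme. Pro-B cells cut and rejoin immunoglobulin heavy chain segments with the RAG recombinase, and pre-B cells test the new heavy chain on their surface with a surrogate light chain before the true light chain is rearranged. Mature B cells lose the recombination machinery and gain surface receptors such as CD20, CD21 and CD23.

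The study compared 3 libraries from wild-type mice (WT) with 3 from Pou3f4 knockout mice (KO), whose genotype the labels write as Pou3f4y/-. Pou3f4 encodes a POU-family regulator on the X chromosome that acts in the mesenchyme around the ear. The material is labelled as inner ear cells of all types, with the further tag interstitial cells, and no age, sex, strain, dissection or mutation design is given. The labels do not say that the libraries came from separate animals, so p-values measure the spread between these samples only, which may be technical.

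Total counts ranged from 18409409 to 23323953 per library. Pou3f4 read 58.3, 112 and 114 CPM (counts scaled to a total of 1000000 per library, with library sizes adjusted by the TMM method of edgeR) in WT replicates 1 to 3 and 1.96, 1.22 and 1.62 CPM in KO replicates 1 to 3, which fits the labels. Counts of Xist, made from the silenced X of females, were 11165, 9143 and 6 in the WT libraries and 1, 15783 and 15119 in the KO libraries. Summed counts of Y-linked genes were 3160 in the third WT library, 4545 in the first KO library and 0 in the others, so 2 libraries labelled with the male genotype Pou3f4y/- had Xist and no Y-linked reads. Results are therefore also given without single libraries and within libraries alike in Xist.

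The RNA held clear B cell transcripts. The 7 B cell markers Cd79a, Cd79b, Ms4a1, Pax5, Vpreb1, Igll1 and Ighm summed to 54.1, 289.6 and 99.8 CPM in the WT libraries and to 158, 195 and 185 CPM in the KO libraries, and none was at 0 in any library. Cochlear markers were present in the same libraries, with Coch, the cochlin gene of the spiral ligament, at 203, 854 and 781 CPM in WT and 263, 246 and 258 CPM in KO. The sequencing does not show where in the dissected tissue the B cell transcripts came from, and in bulk RNA fewer cells of a type and less RNA per cell cannot be told apart.

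Promoter sequences were available for 23 of the 32 genes, as 27 windows of 300 bases running from 250 before to 50 after the RefSeq start site (GRCm38.p6). They were searched on both strands for the binding letters of 3 regulators of the B lineage. The E-box CAGGTG, bound by E proteins such as E2A, was in 11 of 27 windows (40.7%), against 20.2% of all 32851 windows in the table. The octamer ATGCAAAT, bound by OCT factors with the co-activator encoded by Pou2af1, was in 2 of 27 (7.41%; Blnk and Vpreb3) against 1.74% of all windows. The EBF1 core TCCCNNGGG was in 1 of 27 (3.70%; Cd22) against 6.56%. Several genes have more than 1 window, and no test was made of these shares.

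The 250 bases before the start are printed for Igll1 and Rag1, a surrogate light chain gene and a recombinase gene, with the E-box in capitals. They were picked after the matches were seen, because each holds one outside the annotated span of its own gene. Whether transcripts of other genes cover these bases is not given. The E-box begins 8 bases before the start in Igll1 (chr16:16863986-16864235, minus strand), where it reads as its reverse complement, and 135 bases before the start in Rag1 (chr2:101649533-101649782, minus strand).
Igll1: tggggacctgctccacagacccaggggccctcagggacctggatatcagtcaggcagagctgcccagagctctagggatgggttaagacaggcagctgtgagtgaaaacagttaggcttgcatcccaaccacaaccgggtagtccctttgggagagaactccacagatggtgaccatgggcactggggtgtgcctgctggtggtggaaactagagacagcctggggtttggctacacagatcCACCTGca
Rag1: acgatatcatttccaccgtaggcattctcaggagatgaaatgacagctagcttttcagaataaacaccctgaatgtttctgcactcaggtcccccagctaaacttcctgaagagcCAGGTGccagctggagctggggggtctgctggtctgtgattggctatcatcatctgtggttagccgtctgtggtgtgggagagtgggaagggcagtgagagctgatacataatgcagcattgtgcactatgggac

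The surrogate light chain genes Vpreb1 (chr16:16869328-16869353, minus strand) and Vpreb2 (chr16:17980323-17980348, plus strand) share an E-box with nearly the same flanks. The E-box begins 88 bases before the RefSeq start in Vpreb1 and 232 bases before it in Vpreb2. In Vpreb1 it lies within the annotated span of the gene (16868403 to 16870843). The 26 bases printed for each, with the E-box in capitals, differ at 1 base.
Vpreb1: gacgttccagCAGGTGcttcctccca
Vpreb2: gactttccagCAGGTGcttcctccca
The similarity reaches the transcripts as well. Over 759 aligned bases of their longest protein-coding transcripts, 739 (97.4%) were identical, so reads could be split or shared between Vpreb1 and Vpreb2 and the level of each is uncertain.

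No B cell development gene passed the test between genotypes. Of the 32, 30 had enough counts to be tested, and 0 were called by the quasi-likelihood test of edgeR at an adjusted p under 0.05, against 0.396% of all 19687 genes tested. One of the 30, Ebf1, had an unadjusted p under 0.05. DESeq2 called 0 (2 at an unadjusted p under 0.05) where it called 8.14% of all genes, and limma-voom called 0 (1 unadjusted). Adjusted p-values in edgeR ran from 0.214 to 0.971. The fold change of KO over WT was above 0 in 24 of the 30 and below 0 in 6, with a median of 0.23 on the log2 scale against −0.007 over all genes.

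The width of the WT group stood out in the values themselves. Most of these genes were low in WT replicate 1, low to middling in WT replicate 3 and highest in WT replicate 2, with the 3 KO libraries close together in between. The median coefficient of variation of the 30 tested genes was 91.0% among WT libraries and 10.7% among KO libraries, against 17.3% and 7.69% over all genes. A test of 3 libraries against 3 with such a WT spread has wide errors, and a p that misses the threshold does not show that the genotypes are alike.

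**Figure D1:**
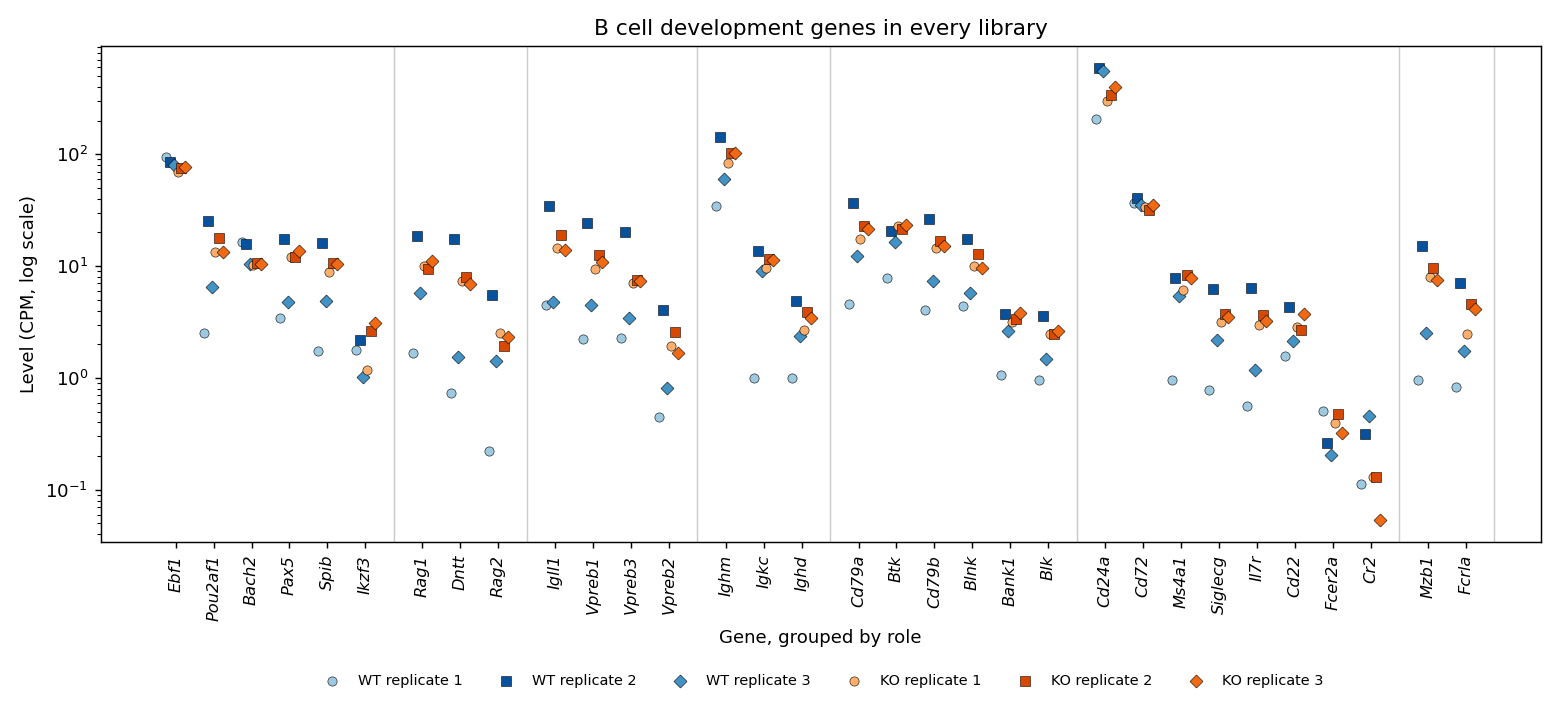
Level of each of the 32 genes (CPM, log axis) in the 3 WT libraries (blue) and the 3 KO libraries (orange), with genes grouped by role and vertical lines between groups. In most genes WT replicate 1 (circle) is lowest and WT replicate 2 (square) highest, with the KO points clustered between them. In Ebf1, Bach2 and Cd72 the WT libraries stay within 2-fold.

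Among the lineage factors, Pax5, which commits cells to the B lineage, read 3.46, 17.4 and 4.78 CPM in WT replicates 1 to 3 and 12.01, 11.98 and 13.6 CPM in KO. Pou2af1, the co-activator of OCT factors in B cells, read 2.51, 25.2 and 6.51 CPM in WT and 13.5, 17.7 and 13.5 CPM in KO. For both, WT replicate 2 was highest and every KO library lay above WT replicates 1 and 3. The log2 fold change was 0.55 for Pax5 (SE 0.57, adjusted p = 0.625, edgeR) and 0.38 for Pou2af1 (SE 0.73, adjusted p = 0.804).

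Ebf1 did not share this spread. It read 93.6, 85.9 and 80.1 CPM in WT and 69.8, 75.6 and 76.3 CPM in KO, so that every KO library was below every WT library by a small margin. In edgeR its log2 fold change came to −0.23 (SE 0.085), with an adjusted p of 0.214, and of 0.138 to 0.531 over all settings tried. EBF1 also acts in mesenchymal and fat-forming cells.

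Bach2, a repressor that holds B cells back from becoming plasma cells, also lacked the wide WT spread. It read 16.4, 15.7 and 10.5 CPM in WT and 10.3, 10.6 and 10.4 CPM in KO. WT replicates 1 and 2 lay above every KO library, and WT replicate 3 lay inside the KO range. Its log2 fold change was −0.45 (SE 0.19, adjusted p = 0.256, edgeR). Ikzf3, the Aiolos factor of pre-B and later cells, was low in every library, at 1.79, 2.19 and 1.02 CPM in WT and 1.18, 2.62 and 3.08 CPM in KO. The WT and KO values of Ikzf3 overlapped, and the 3 KO libraries spread 2.62-fold. Spib, an ETS factor of B cells and plasmacytoid dendritic cells, ranged from 1.73 to 15.9 CPM over the 6 libraries.

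Of the recombination genes, 2 (Dntt and Rag2) had the largest fold between the highest and lowest WT library among the 30 tested genes. Dntt encodes terminal transferase, which adds untemplated bases at the joints, and it read 0.726, 17.5 and 1.53 CPM in WT against 7.36, 7.97 and 6.98 CPM in KO. The WT libraries thus differed 24.1-fold and the KO libraries 1.14-fold. Its log2 fold change was 0.17 with an SE of 1.02 (adjusted p = 0.943, edgeR).

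Rag1, the catalytic subunit of the recombinase, read 1.68, 18.7 and 5.70 CPM in WT and 10.01, 9.46 and 11.0 CPM in KO. Its partner Rag2 read 0.224, 5.47 and 1.42 CPM in WT and 2.53, 1.92 and 2.33 CPM in KO, the lowest value resting on 4 counts. Both followed the order of Dntt, with WT replicate 2 high and the KO libraries between WT replicates 3 and 2. The log2 fold changes were 0.23 for Rag1 (SE 0.72) and −0.08 for Rag2 (SE 0.85). A further gene, B230118H07Rik, covers 6.08% of the exons of Rag2 and 1.21% of those of Rag1 and held 2971 counts in all, so some of these reads may belong to it.

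The surrogate light chain genes behaved alike. Igll1, the lambda5 chain, read 4.53, 34.3 and 4.78 CPM in WT and 14.6, 19.1 and 14.1 CPM in KO. Vpreb1, the V-like partner of lambda5, read 2.24, 24.2 and 4.48 CPM in WT and 9.49, 12.6 and 10.9 CPM in KO. Vpreb3, an endoplasmic reticulum protein of pre-B cells related to Vpreb1, read 2.29, 20.2 and 3.46 CPM in WT and 7.10, 7.45 and 7.36 CPM in KO. WT replicate 2 was above every KO library in each, and WT replicates 1 and 3 were below every KO library. The log2 fold changes were 0.13, 0.09 and −0.24, with SEs of 0.77, 0.79 and 0.76 and adjusted p-values of 0.943, 0.962 and 0.886 (edgeR). Vpreb2 ranged from 0.447 to 4.07 CPM in the same order.

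Of the immunoglobulin genes, Ighm, the constant region of IgM (chromosome 12, 113418558 to 113422730, minus strand, mm10), read 34.3, 142 and 60.6 CPM in WT and 84.0, 104 and 102 CPM in KO. Igkc, the kappa light chain constant region, read 1.01, 13.6 and 9 CPM in WT and 9.62, 11.5 and 11.4 CPM in KO. Ighd, the IgD constant region that is spliced from the same transcripts as Ighm in mature cells, read 1.01, 4.85 and 2.39 CPM in WT and 2.70, 3.88 and 3.41 CPM in KO. All 3 again had WT replicate 1 lowest and WT replicate 2 highest. Their log2 fold changes were 0.29 (SE 0.47), 0.46 (SE 0.72) and 0.27 (SE 0.51), and the adjusted p-values 0.767, 0.759 and 0.8002 (edgeR). Within a library, the ratio of Igkc counts to Ighm counts was 0.0293, 0.0955 and 0.149 in the WT libraries and 0.111 to 0.115 in the KO libraries.

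The receptor's signalling chains followed the immunoglobulin genes. Cd79a, the alpha chain that carries the signal of the pre-B and B cell receptors, read 4.58, 36.9 and 12.4 CPM in WT and 17.5, 22.6 and 21.6 CPM in KO. Cd79b, the beta chain, read 4.08, 26.5 and 7.37 CPM in WT and 14.5, 16.8 and 15.2 CPM in KO. The KO libraries of each lay between WT replicates 3 and 2. The log2 fold changes were 0.19 (SE 0.65, adjusted p = 0.896, edgeR) and 0.29 (SE 0.62, adjusted p = 0.826). The adaptor Blnk ranged from 4.36 to 17.6 CPM and the kinase Blk from 0.9498 to 3.60 CPM over the 6 libraries.

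Btk, the kinase downstream of the receptor, which myeloid cells also express, was the only one of the 30 with every KO library above every WT library. It read 7.82, 20.4 and 16.3 CPM in WT and 22.9, 21.6 and 23.1 CPM in KO. Its log2 fold change was 0.60 (SE 0.32, adjusted p = 0.349, edgeR; 0.161 to 0.615 over all settings tried). Ebf1 and Cd72 were the 2 with every KO library lower. Over all genes tested, 15.0% had every KO library higher and 12.7% every KO library lower, so 1 and 2 of 30 are not above that background. Bank1, a B cell scaffold protein, read 1.06, 3.70 and 2.64 CPM in WT and 3.18, 3.36 and 3.79 CPM in KO, with a log2 fold change of 0.47 (SE 0.41).

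The surface receptors were mixed. Cd24a, the heat-stable antigen of immature B cells, which red cell precursors, neutrophils and epithelia carry as well, read 207, 584 and 560 CPM in WT and 300, 339 and 397 CPM in KO. Unlike the recombination and surrogate light chain genes, Cd24a was high in WT replicate 3 as well as in replicate 2. Its log2 fold change was −0.38 (SE 0.37, adjusted p = 0.597, edgeR). Ms4a1, which encodes CD20 of mature B cells, read 0.9498, 7.87 and 5.44 CPM in WT and 6.09, 8.24 and 7.84 CPM in KO. WT replicate 2 lay inside the KO range here, and the log2 fold change of 0.63 (SE 0.62, adjusted p = 0.605) was the highest of the 30.

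Cd72, a negative co-receptor of B cells, read 36.3, 40.2 and 35.3 CPM in WT and 33.9, 32.03 and 35.3 CPM in KO, and its log2 fold change in edgeR was −0.14 (SE 0.091) at an adjusted p of 0.418. The gene Tesk1 covers 41.6% of the exons of Cd72 on the opposite strand and held 5708 counts in all. Whether reads were counted by strand is not given, so the level of Cd72 is uncertain. Il7r, the receptor for the growth factor of pro-B cells, ranged from 0.559 to 6.31 CPM, the inhibitory lectin Cd22 from 1.56 to 4.33 CPM and its relative Siglecg from 0.782 to 6.20 CPM. Cr2 (CD21) and Fcer2a (CD23), receptors of mature B cells, were too low to be tested, with 1 to 9 counts for Cr2 and 4 to 11 for Fcer2a per library.

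The intracellular proteins completed the set. Mzb1, an endoplasmic reticulum chaperone of immunoglobulin, read 0.9498, 15.3 and 2.54 CPM in WT and 7.97, 9.59 and 7.46 CPM in KO. Fcrla, an intracellular Fc receptor-like protein of B cells, read 0.838, 6.99 and 1.73 CPM in WT and 2.48, 4.58 and 4.11 CPM in KO. WT replicate 2 was highest for both and the KO libraries were in between, with log2 fold changes of 0.41 (SE 0.86) and 0.22 (SE 0.72). The gene model SPATA24 covers 57.2% of the exons of Mzb1 on the same strand, so the level of Mzb1 is uncertain.

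Per length, as TPM (read density per exon length, scaled to a total of 1000000 per library) over the exons of the GENCODE M21 annotation, the levels differed widely between genes. Cd24a stood at 453 ± 227 TPM in WT and 350 ± 50.8 TPM in KO (SD, n = 3 each), and Ighm at 110 ± 84.1 and 134 ± 14.6 TPM. Igkc followed at 39.0 ± 32.6 and 53.2 ± 5.01 TPM, and Cd79a read 7.58, 68.7 and 21.6 TPM in the WT libraries and 36.9 ± 4.69 TPM in KO. Ebf1, with its long transcript, was at 22.6 ± 1.57 and 19.8 ± 0.930 TPM, below Igkc in the mean of either genotype, although the WT spread of Igkc includes it. Cr2 was lowest, at 0.0937 ± 0.0558 and 0.0338 ± 0.0141 TPM.

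The shared order of the libraries was counted over all genes as well; the orders and fold limits below were chosen after the values were seen and carry no test. WT replicate 1 was the lowest of the 6 libraries for 26 of the 30 tested genes, and for 29.6% of all genes. WT replicate 2 was the highest for 24 of the 30, and for 17.5% of all genes. The full order, with WT replicate 1 below WT replicate 3, every KO library above both and WT replicate 2 above all, held for 22 of the 30 and for 1.94% of all genes.

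The 8 genes outside that order were Ebf1, Ikzf3, Bach2, Btk, Bank1, Cd24a, Ms4a1 and Cd72. The highest WT library exceeded the lowest more than 4-fold in 21 of the 30 genes, against 5.71% of all genes, and more than 7-fold in 16, against 2.73%. Ebf1, Bach2 and Cd72 were the 3 genes in which the WT libraries stayed within 2-fold. These genes came from the same libraries, so their counts are not independent of each other.

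Early and late B cell genes did not shift in one ratio. The counts of 7 pro-B and pre-B genes (Vpreb1, Vpreb2, Igll1, Rag1, Rag2, Dntt, Il7r) were divided by those of 6 genes of mature B cells (Ms4a1, Ighd, Cr2, Fcer2a, Cd22, Siglecg). The ratio was 2.11 in WT replicate 1 (95% Wilson interval 1.64 to 2.72), 4.64 in WT replicate 2 (4.19 to 5.13) and 1.55 in WT replicate 3 (1.33 to 1.82). In the KO libraries it was 3.19 (2.83 to 3.59), 2.99 (2.68 to 3.33) and 2.66 (2.35 to 3.01). The intervals cover counting error only.

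The ratios of all 3 WT libraries lay outside the intervals of all KO libraries, WT replicates 1 and 3 below and WT replicate 2 above. The interval of WT replicate 1 overlapped those of KO replicates 2 and 3. The means were 2.77 ± 1.64 in WT and 2.94 ± 0.267 in KO (SD, n = 3 each), so the genotypes differed by far less than the spread within WT. Single genes set against Cd79a in the same library did not share one order. Dntt counts were 0.159, 0.475 and 0.123 of those of Cd79a in the WT libraries and 0.420, 0.353 and 0.323 in the KO libraries. Ms4a1 counts were 0.207, 0.213 and 0.439 of those of Cd79a in WT and 0.348, 0.364 and 0.363 in KO, highest in WT replicate 3, where that of Dntt was low. Igll1 counts were 0.988, 0.929 and 0.385 of those of Cd79a in WT and 0.833, 0.846 and 0.652 in KO. The ratios of WT replicate 1 rest on few counts (81 of Igll1, 13 of Dntt and 82 of Cd79a). They do not rank it against WT replicate 2 for Igll1 or WT replicate 3 for Dntt.

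**Figure D2:**
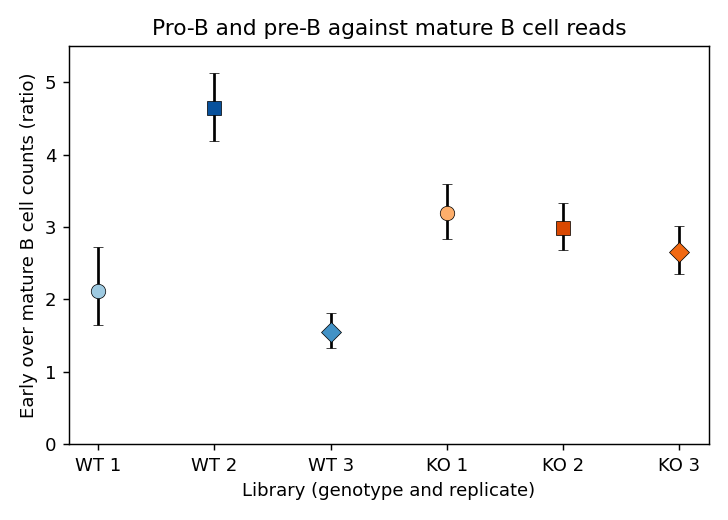
Summed counts of 7 pro-B and pre-B genes over those of 6 mature B cell genes in each library, with 95% Wilson intervals for counting error. The WT libraries run from 1.55 to 4.64 and the KO libraries from 2.66 to 3.19.

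Marker lists of other cells were read in the same libraries. Neutrophil markers, also of marrow, summed to 224, 1016 and 1338 CPM in WT and 983, 935 and 1030 CPM in KO, with all 12 detected in every library and none called. The ratio of the B cell sum to the neutrophil sum was thus 24.2%, 28.5% and 7.46% in WT and 16.1%, 20.8% and 18.0% in KO. WT replicate 1 was low in both lists, whereas WT replicate 3 was low in the B cell list and highest in the neutrophil list.

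Erythroid markers summed to 2047, 8051 and 7135 CPM in WT and 2181 to 3491 CPM in KO, with 0 of 11 called. T and NK cell markers were low throughout, at 13.9, 21.2 and 14.9 CPM in WT and 20.0 to 24.9 CPM in KO, with 0 of 9 tested called and the T cell receptor chain Cd3e at 0.112 to 0.625 CPM. Siglech, a defining marker of plasmacytoid dendritic cells, which share Spib and Mzb1 with B cells, read 1.17 to 3.56 CPM. Macrophage markers ran from 498 to 598 CPM in WT and from 766 to 830 CPM in KO, with 0 of 10 called and 5 at an unadjusted p under 0.05 (edgeR). The most abundant, Csf1r, had a mean of 225 CPM in WT and 376 CPM in KO. Every KO library was above every WT library for 6 of the 10 and below for 1 (C1qa), against 15.0% and 12.7% of all genes.

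**Figure D3:**
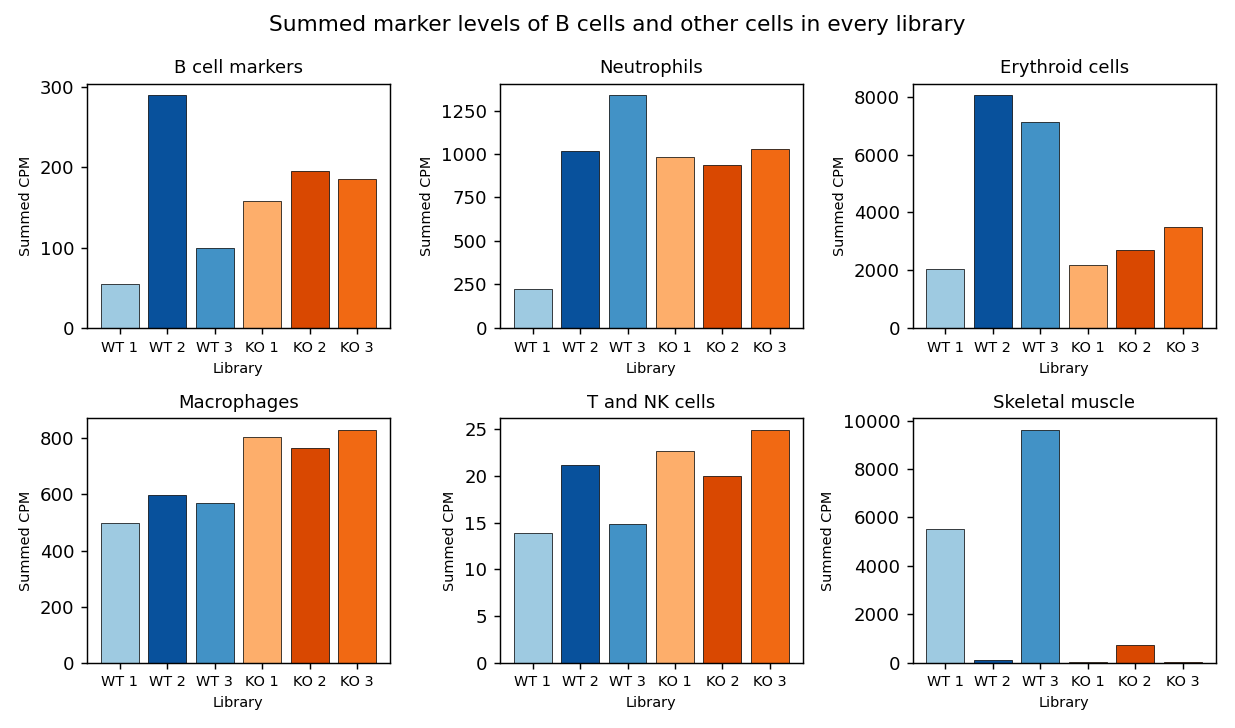
Summed CPM of marker lists for B cells and 5 other cell classes in each library, each panel with its own axis from 0. B cell markers peak in WT replicate 2 (289.6 CPM), neutrophil markers in WT replicate 3 (1338 CPM) and muscle markers in WT replicates 1 and 3 (5531 and 9608 CPM).

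Other tissue of the dissection varied between libraries too. Skeletal muscle markers summed to 5531 and 9608 CPM in WT replicates 1 and 3, where B cell genes were low, to 125 CPM in WT replicate 2, and to 19.0, 724 and 31.3 CPM in KO. The 12 inner ear markers summed to 732, 1902 and 1687 CPM in WT and 696 to 791 CPM in KO, with 1 called lower (Otor). That sum is weighted to the genes most abundant in WT, Coch, Otor and Otos. Over the 12, the median log2 fold change was −0.05 with 5 above 0, and Tectb was higher in every KO library. Of the bone and nerve lists, 3 of 8 osteoblast markers were called higher in KO (Spp1, Col1a1 and Col1a2) and 2 of 5 tested Schwann cell markers lower (Pmp22 and Prx). The part of these tissues in the B cell values was not tested.

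The sign of the B cell comparison turned on single WT libraries. Without WT replicate 2, the median log2 fold change of the 30 genes was 1.24 with 26 above 0, and 4 were called higher in KO, against 3.78% of all genes called in either direction. They were Igll1 at 1.78 (SE 0.20, adjusted p = 0.0265, edgeR), Dntt at 2.71 (SE 0.34, adjusted p = 0.0277), Pax5 at 1.60 (SE 0.20, adjusted p = 0.0282) and Vpreb3 at 1.34 (SE 0.23, adjusted p = 0.0430). In that subset every KO library was above both WT libraries for 25 of the 30 genes and below both for 2, against 22.0% and 20.6% of all genes. For 22 of the 30, the 4 called genes among them, this follows from the library order given above. It is therefore no further result.

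Without WT replicate 1, the median was −0.16 with 5 of 30 above 0. One gene, Cd24a, was then called lower, at −0.74 (SE 0.12, adjusted p = 0.0201, edgeR), where 9.06% of all genes were called. Without WT replicate 3, the median was −0.01, with 14 of 30 above 0 and 0 called (2 at an unadjusted p under 0.05). Leaving out KO replicate 1, 2 or 3 gave medians of 0.32, 0.18 and 0.23 and called 0 of the 30, with 0 at an unadjusted p under 0.05. Without WT replicate 3 or any single KO library, 0 of all genes tested were called too. The 0 of 30 in these fits is thus not particular to the B cell genes.

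**Figure D4:**
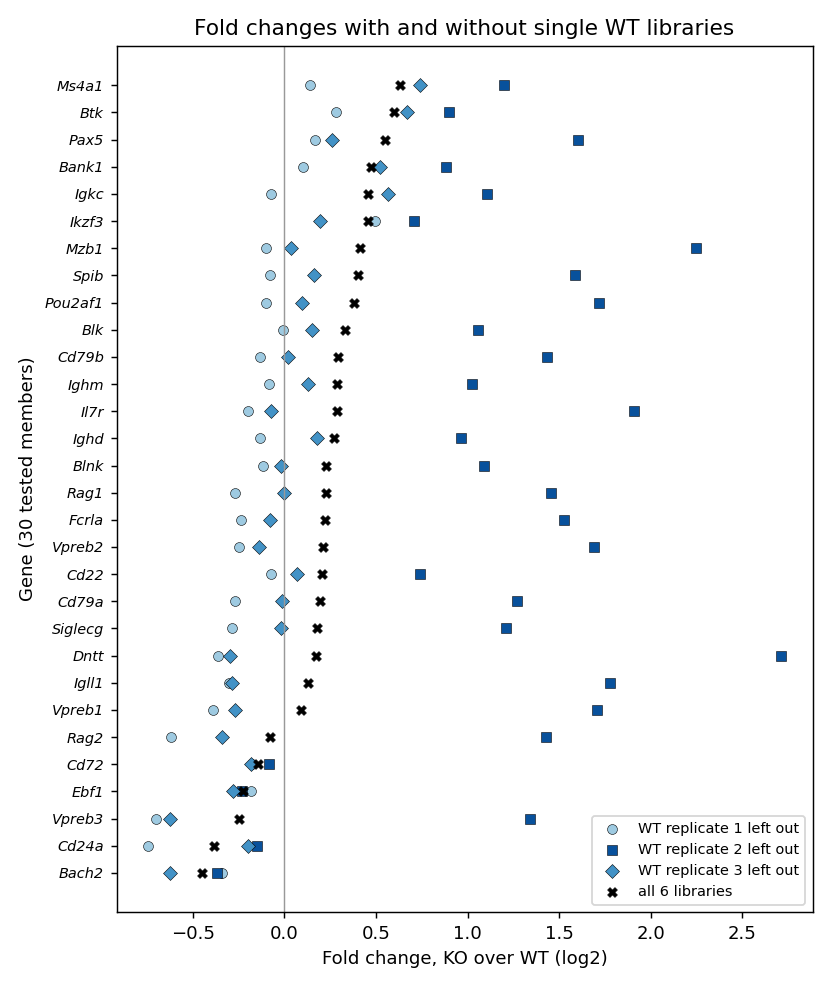
Log2 fold change of KO over WT for the 30 tested genes with all 6 libraries (crosses) and with each WT library left out (circle, square and diamond for replicates 1, 2 and 3), sorted by the value with all 6. Without WT replicate 2 the median moves to 1.24, and without WT replicate 1 to −0.16; Ebf1, Cd72, Bach2 and Cd24a stay below 0 throughout.

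Within the libraries that held Xist reads (WT replicates 1 and 2, KO replicates 2 and 3), the ratio of mean CPM was above 1 for 19 of the 30 genes, with a median log2 ratio of 0.07. Between the libraries without them (WT replicate 3 and KO replicate 1, 1 each and so no test), it was above 1 for 26 of the 30, with a median log2 ratio of 0.64. With Xist as a term in the edgeR fit, 0 of the 30 genes were called (2 at an unadjusted p under 0.05) and the median was 0.31. That fit called 0 of all genes tested as well.

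Other genes of B cell biology were read from the same fit, and none was called. Of 19 further B cell identity and receptor genes, 17 had fold changes above 0 (median 0.40 on the log2 scale; 4 at an unadjusted p under 0.05, edgeR). The most abundant of the list are shared with other cells: Cd93, also endothelial, ran from 93.7 to 119 CPM over the 6 libraries, and the kinase Lyn, also myeloid, from 36.3 to 67.2 CPM. Ptprc, which encodes CD45 of all white blood cells, read 18.7, 49.4 and 48.3 CPM in WT and 66.2, 68.5 and 82.8 CPM in KO (log2 fold change 0.90, SE 0.35, adjusted p = 0.226). In 7 of the 19 genes every KO library was above every WT library, a larger share than the 15.0% of all genes. No test was made of this share. The macrophage sums given above, though not every gene in them, also lay higher in every KO library, and their part in these values was not tested.

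Of 12 further lineage regulators, 0 were called and 9 had fold changes above 0 (median 0.21; 1 at an unadjusted p under 0.05, edgeR). The broadly expressed Tcf4, Tcf3 and Foxo1, which act with EBF1 early in the lineage, ran from 148 to 197, from 76.1 to 98.8 and from 71.9 to 86.9 CPM over the 6 libraries. Of 13 plasma cell and other immunoglobulin genes, 8 were tested, 0 called and 8 above 0 (median 0.75; 1 at an unadjusted p under 0.05). The most abundant of that list was Xbp1, at 94.25, 154.6 and 148.3 CPM in WT and 172, 183.7 and 169.6 CPM in KO (adjusted p = 0.288). Sdc1 read 151.5, 78.81 and 68.69 CPM in WT and 117.9, 109.1 and 122 CPM in KO, so the groups overlapped (adjusted p = 0.698). Prdm1, the plasma cell factor BLIMP1, read 10.2, 15.6 and 10.7 CPM in WT and 20.7, 22.5 and 22.7 CPM in KO (log2 fold change 0.85, SE 0.19, adjusted p = 0.104). Jchain, of the same list, was low, at 0.0559 to 1.39 CPM over the 6 libraries.

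Signals by which marrow stroma supports B cells gave 0 of 9 called, 4 of 9 above 0 and a median of −0.02 (1 at an unadjusted p under 0.05, edgeR). Cxcl12, the chemokine that holds B cell precursors in marrow, read 408, 719 and 577 CPM in WT and 822, 835 and 934 CPM in KO (log2 fold change 0.61, SE 0.20, adjusted p = 0.182). Every KO library was above every WT library for Cxcl12. Il7, the growth factor of pro-B cells, read 0.9498, 2.76 and 3.25 CPM in WT and 2.87, 2.61 and 3.41 CPM in KO, and Kitl, the stem cell factor gene, ran from 59.1 to 66.5 CPM.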

How the data were processed

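The members and the gene lists were chosen with earlier results of these data known. Total RNA was extracted with Trizol and libraries were made with a stranded TruSeq mRNA kit, per the labels' protocols. Tools named in the submitters' processing notes are Trimmomatic, HISAT2, Cufflinks and HTSeq, with the build mm10. Neither the annotation nor strand use in counting is stated there or in the labels. The authors deposited whole-number read counts per gene that were not normalised.

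Counts were used as deposited. Genes were filtered with filterByExpr (minimum count 10, leaving 19687 of 55401) and tested with the quasi-likelihood test of edgeR 4.0.16 (R 4.3.3) with genotype as the only term, TMM scaling and Benjamini-Hochberg adjustment over all genes at 0.05. SEs were derived from the F statistic. The scripts were tested on simulated data. A count of 0 allows up to 3 counts, or 0.131 to 0.168 CPM. CPM was computed with scaled library sizes, and TPM from GENCODE M21 exon lengths, in which all 32 genes had identical coordinates. Values are given for the highest genes of each role (up to 3 by mean CPM) and the 6 largest fold changes, 23 genes in all, and the other 9 by range. Alternatives were other scalings and filters, DESeq2 1.42.0, limma-voom (limma 3.58.1), a replicate block, an Xist term and fits without each library. Results of some genes are not reported here, and those genes were left out of the marker and pathway lists after the fits were made.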

Additional observations from a re-analysis of the deposited data

How the results depend on the processing

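The number of B cell genes called stayed at 0 under other scalings and filters, DESeq2, limma-voom, the replicate block, the Xist term and without haemoglobin, muscle and mitochondrial genes. Leaving out 1 library gave 0 to 4 called and 3 to 27 with no overlap between groups. The 27 were found without WT replicate 2, where 22.0% of all genes had every KO library higher and 20.6% every KO library lower. For the other fits without 1 library the share over all genes is not given, so their counts are not read further. Genes called over the whole table numbered 78, with 1603 by DESeq2, 1 with the replicate block, 0 with the Xist term and 0 to 1814 without 1 library. The DESeq2 setting was kept after 3 had been run and their counts seen, and the other 2 gave 1596 and 1486 genes, with 0 B cell genes in each. The median log2 fold change of the B cell genes was 0.69 in limma-voom and 0.66 with the block. Rag2 turned to 0.81 in limma-voom and 0.54 with the block, and Vpreb3 to 0.41 and 0.42. Without 1 library, log2 fold changes crossed 0 for 21 genes: Blk (−0.0078 to 1.06), Blnk (−0.12 to 1.09), Cd22 (−0.073 to 0.74), Cd79a (−0.27 to 1.27), Cd79b (−0.13 to 1.44), Dntt (−0.36 to 2.71), Fcrla (−0.24 to 1.52), Ighd (−0.13 to 0.96), Ighm (−0.083 to 1.02), Igkc (−0.073 to 1.11), Igll1 (−0.30 to 1.78), Il7r (−0.20 to 1.91), Mzb1 (−0.10 to 2.25), Pou2af1 (−0.10 to 1.72), Rag1 (−0.27 to 1.46), Rag2 (−0.62 to 1.43), Siglecg (−0.28 to 1.21), Spib (−0.075 to 1.59), Vpreb1 (−0.39 to 1.71), Vpreb2 (−0.25 to 1.69) and Vpreb3 (−0.70 to 1.34). The cause was not tested. Same-numbered WT and KO libraries deviated with correlations of −0.13, −0.29 and −0.19. With 3 libraries in each group, these values cannot show whether the numbers pair the samples. Few counts limit Rag2, Vpreb2, Cr2 and Fcer2a. In WT replicate 1, counts from 10 (Il7r) to 19 (Bank1) also limit Il7r, Dntt, Siglecg, Fcrla, Mzb1, Ms4a1, Blk, Ighd, Igkc and Bank1.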

Other observations

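Reads of immunoglobulin variable genes were counted as a description of the repertoire. Of 113 heavy chain variable genes in the table, those with a count numbered 21, 60 and 46 in the WT libraries and 54, 67 and 66 in the KO libraries, from 29, 164 and 84 heavy chain variable counts in WT and 122, 196 and 182 in KO. The most frequent one held 17.2%, 15.9% and 9.52% of those counts in WT and 6.56%, 9.69% and 6.04% in KO. It was Ighv14-2 in WT replicate 2 (26 counts) and in KO replicate 2 (19 counts) and a different gene in each other library, resting on 5 counts in WT replicate 1. All variable genes together held counts equal to 7.595%, 11.3% and 15.3% of those of Ighm and Igkc in WT and 12.5%, 16.6% and 18.7% in KO.

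Kappa counts made up 54.5% of kappa and lambda constant region counts in WT replicate 1 (95% Wilson interval 38.0% to 70.2%, 18 kappa counts), 72.7% in WT replicate 2 (67.9% to 77.0%) and 72.2% in WT replicate 3 (66.3% to 77.5%). The KO libraries had 72.0% (66.7% to 76.7%), 63.4% (58.6% to 67.9%) and 69.4% (64.0% to 74.3%). The intervals cover counting error only, and those of all 6 libraries overlap that of WT replicate 1.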
